A study of Homo sapiens with 4 samples.

Results

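Receptor tyrosine kinases are cell-surface proteins that bind a growth factor, a membrane-bound ligand or collagen on the outside and phosphorylate tyrosines on the inside. Ligand binding brings receptors together, the kinase domains phosphorylate each other, and adaptors such as GRB2 and SHC1 pass the signal to the Ras-MAP kinase and phosphoinositide 3-kinase pathways. In airway epithelium EGFR, ERBB2 and MET are known for their part in growth and wound repair, and FER, a cytoplasmic tyrosine kinase, has been found in complexes with activated growth factor receptors. The 57 genes described here were chosen by symbol, as the human receptor tyrosine kinases of a given list, from 39634 genes with counts, and each symbol occurred once.

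BEAS-2B is an established line of human bronchial epithelium. Its polyadenylated RNA was sequenced in 4 libraries, all from cells in N2B27 medium. All cells carried a short hairpin RNA (shRNA): shControl in 2 libraries (genotype CTL) and shFer in the other 2 (genotype Fer knockdown). The study asked how depletion of FER changes gene expression in these cells. The replicates are numbered with no word on whether each was its own culture. The p-values therefore rest on a spread between these samples that may be technical. Nor do the labels say whether a group was 1 clone or a pool of cells.

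The libraries held 21422976 to 25169713 counts. FER itself had 334 and 459 counts in control and 404 and 535 in the libraries labelled Fer knockdown, and its log2 fold change was 0.02 with a 95% interval of -0.37 to 0.40 (edgeR's quasi-likelihood test, adjusted p = 0.976). Its mRNA thus goes against the label, so a direction is always stated for the libraries labelled Fer knockdown relative to control. The mitochondrial genome gave 16.9% and 19.4% of the control counts and 9.62% and 9.37% of the others. The epithelial keratins KRT8 and KRT18 had mean levels of 268 and 269, while CDH1, EPCAM and KRT19 were at 1.44, 1.502 and 2.96 and the basal-cell keratin KRT5 had 3 to 12 counts a library. CDH1 and EPCAM lay above both controls in the libraries labelled Fer knockdown (log2 fold changes of 0.45 and 0.46, edgeR adjusted p = 0.239 and 0.426). Of 5 tested epithelial markers only these 2 lay above both controls (25.8% of all tested genes did), and 0 lay below. The median log2 fold change of the 5 was 0.16. The list's summed level was 624 and 496 in control and 533 and 518 in the others. That sum is nearly all KRT8 and KRT18, so it does not show the course of the markers at low levels. The mesenchymal markers VIM and FN1 were also high (218 and 128). Markers of endothelial cells (4 of 5 analysed here) summed to levels of 0.719 to 1.10, those of neural cells to 0.400 to 0.796, and of the blood-cell markers CD3E and HBB had 0 counts in every library, PTPRC had 0 to 6, and CD14 had a level of 11.25 on average (343 to 506 counts).

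Levels are CPM, counts relative to library size, on edgeR's TMM scale divided by the deposited gene length in kilobases, so that genes can be compared with each other. A level of at least 1, averaged over the 4 libraries, was reached by 19 of the 57 receptor genes. Another 19 passed the filter on low counts with a level below 1, and 19 failed it, with at most 14 counts in any library. Of all 15336 genes that passed the filter, 74.5% reached a level of 1. Together the 57 genes took 0.221% and 0.228% of the control counts (95% Wilson intervals 0.219 to 0.223 and 0.226 to 0.230) and 0.243% and 0.247% of the others (0.241 to 0.245 and 0.245 to 0.248), intervals that cover counting error only. Their TMM-scaled levels summed to 362 and 364 in control and to 349 and 355 in the libraries labelled Fer knockdown.

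Transcripts of 4 receptors, EPHA2, AXL, EPHB4 and PTK7, made up 74.2% to 77.1% of that sum in each library. EPHA2, a receptor for membrane-anchored ephrin-A ligands, led by a clear margin. Its levels were 126.3 and 119.1 in control and 119.7 and 123.5 in the libraries labelled Fer knockdown, and it ranked 264 of the 15336 genes. The groups overlapped. AXL, the TAM-family receptor for GAS6, followed at 69.60 and 76.92 in control and 62.45 and 62.80 in the others, where both values lay below both controls. EPHB4, which binds ephrin-B ligands, stood at 46.82 and 40.26 against 40.18 and 40.81, so that control replicate 1 alone was apart. PTK7, a pseudokinase that takes part in Wnt and planar polarity signalling, had 36.30 and 33.63 in control and 39.55 and 41.19 in the others, again without overlap. EPHB4 and PTK7 did not differ in level beyond their spread over libraries, whereas EPHA2 exceeded AXL, and AXL exceeded EPHB4, in every library.

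**Figure D1:**
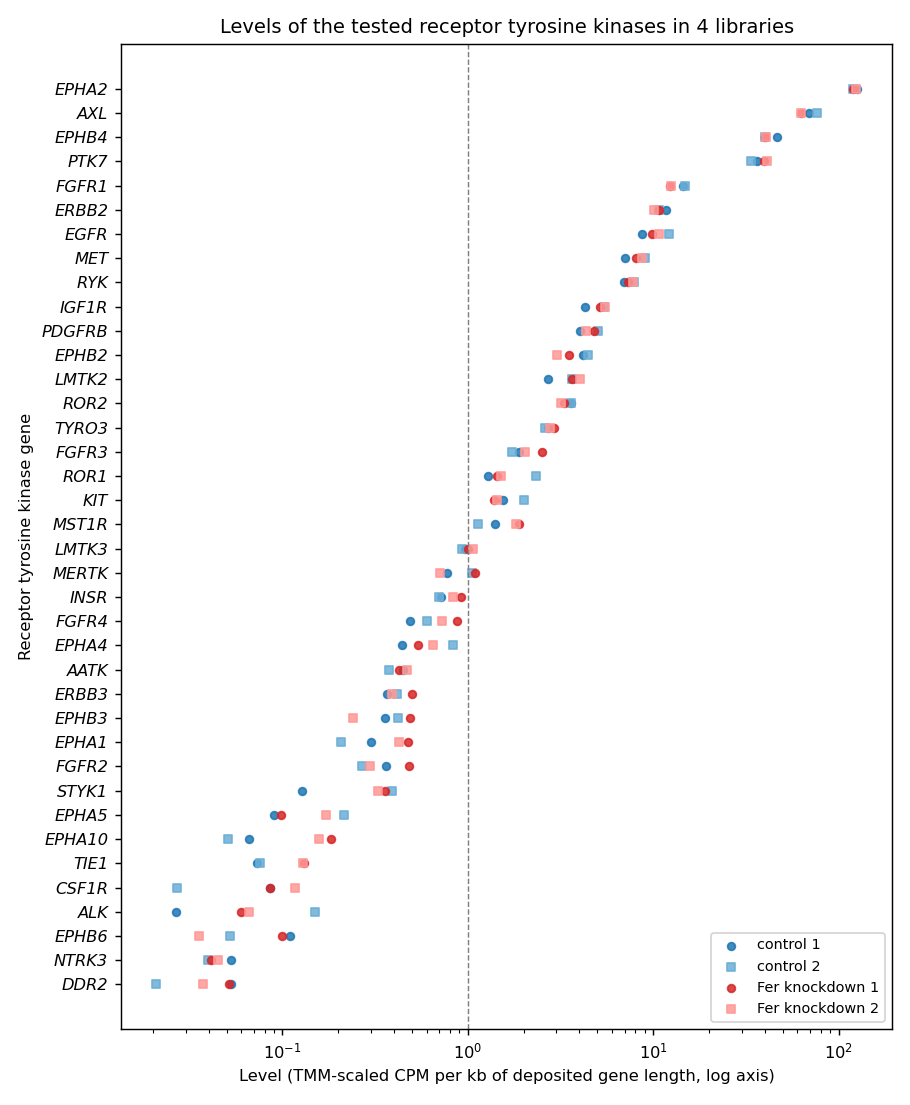
Level of each of the 38 receptor genes that passed the filter on low counts, in TMM-scaled CPM per kb of deposited gene length (log axis), with 1 point per library and a dashed line at a level of 1. EPHA2 lies at 119.1 to 126.3, and 19 genes have a mean at or above the line.

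Next in level came FGFR1, ERBB2, EGFR, MET, RYK and IGF1R. FGFR1, a receptor of fibroblast growth factors, had levels of 14.51 and 14.86 in control and 12.33 and 12.53 in the libraries labelled Fer knockdown, with no overlap. ERBB2, the partner of the other ERBB receptors that has no ligand of its own, stood at 11.77 and 10.76 against 10.71 and 10.07, lower without overlap by a narrow margin on the TMM scale alone (with library totals its log2 fold change turned from -0.12 to 0.05), and 7.41% of its exonic bases are shared with other GENCODE 29 genes. EGFR had 8.72 and 12.12 in control, a wider gap than between the other 2 libraries (9.81 and 10.75), which lay between them. MET, the receptor of hepatocyte growth factor, had 7.05 and 9.01 against 8.10 and 8.67. RYK, a Wnt-binding pseudokinase, lay at 6.995 and 7.91 against 7.33 and 7.81. From ERBB2 down to RYK each gene's range over the libraries overlapped that of the next. IGF1R, which binds insulin-like growth factors, had levels of 4.26 and 5.40 in control and 5.17 and 5.50 in the others.

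Among the remaining genes with a level of at least 1, PDGFRB, a platelet-derived growth factor receptor typical of mesenchymal cells, stood at 4.02 and 5.04 in control and 4.81 and 4.32 in the libraries labelled Fer knockdown. EPHB2, a second ephrin-B receptor, had 4.17 and 4.47 against 3.50 and 3.02, and the groups did not overlap. LMTK2, a membrane kinase of endosomes, had 2.71 and 3.67 against 3.65 and 4.004, with an overlap set by control replicate 2. ROR2, a receptor of WNT5A, was at 3.59 and 3.58 against 3.32 and 3.16, while its relative ROR1 was at 1.28 and 2.33 against 1.44 and 1.51. ROR2 had both controls above both other libraries, and ROR1 did not. TYRO3, of the TAM family, had 2.72 and 2.60 against 2.92 and 2.78, higher without overlap. FGFR3 had 1.90 and 1.74 against 2.50 and 2.04, and KIT, the receptor of stem cell factor, had 1.54 and 2.00 against 1.39 and 1.43. Neither FGFR3 nor KIT overlapped between groups. MST1R, the MET relative that binds macrophage-stimulating protein, closed the series at 1.40 and 1.14 in control and 1.90 and 1.81 in the libraries labelled Fer knockdown, which lay above both controls.

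Families differed in how many members were present. The EPHA receptors took 34.5% of the summed level on average, nearly all of it EPHA2, since the other 8 EPHA genes all had a mean level below 1. TAM receptors took 20.01%, the group of PTK7, RYK, ROR1, ROR2 and MUSK 14.1%, EPHB receptors 12.9%, ERBB receptors 6.04% and FGF receptors 4.65%. Of the insulin receptor family IGF1R exceeded INSR, whose levels were 0.714 and 0.703 in control and 0.915 and 0.831 in the others. ERBB3, the pseudokinase partner of ERBB2, had a mean level of 0.417, and ERBB4 had 0 counts in all 4 libraries. PDGFRB was present at 587 to 818 counts, while PDGFRA, its partner in many fibroblasts, had 1 to 10. The VEGF receptors FLT1, KDR and FLT4, which mark endothelium, had 0 to 11 counts a library, and the endothelial TIE1 and TEK had 1 to 23. EPHB1 and EPHA7 also had 0 counts in every library, which allows up to 0.119 to 0.14 CPM a library at 3 counts. In RNA from whole cultures, fewer cells with a transcript and less of it per cell cannot be told apart.

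**Figure D2:**
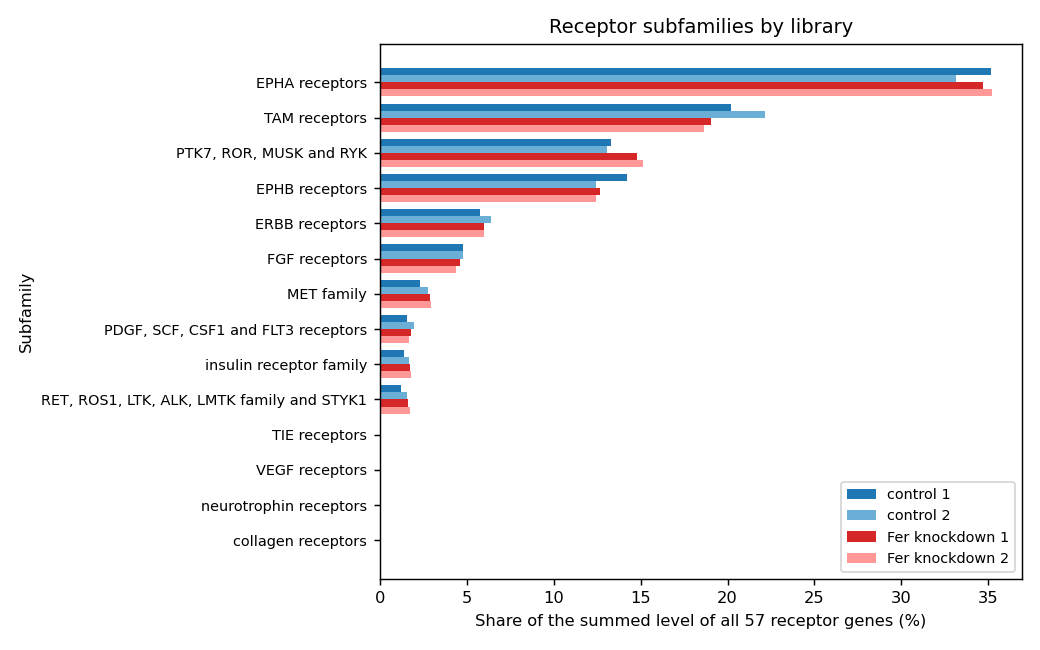
Share of the summed level of all 57 receptor genes held by each subfamily, in percent, with 1 bar per library. EPHA receptors take 33.1% to 35.2% and TAM receptors 18.7% to 22.2% in the 4 libraries.

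The level depends on the length used. With the length of the main GENCODE 29 transcript, an alternative added after seeing the data, 24 members in place of 19 reached a level of 1, the additions being LMTK3, MERTK, INSR, FGFR4 and AATK. PTK7 then had a level of 79.2 and came second to EPHA2 (127.6), and FGFR1, ERBB2, RYK and EPHB2 had 33.6, 24.6, 20.8 and 12.9. AXL, TYRO3 and MERTK had 73.6, 3.62 and 1.045. PTK7 and RYK together thus exceeded the TAM receptors, the reverse of the family order by deposited length. The shares of the families and of the 4 highest genes hold for the deposited length only and were not recomputed.

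DDR1, a collagen receptor of epithelial cells, was listed with 1 count in control replicate 2 and 0 in the other 3 libraries, and this value cannot be read as a lack of the transcript. Most genes beside it on chromosome 6 were also listed at or near 0, while its neighbour IER3 had 7 to 12 counts a library. Of 11 protein-coding neighbours in RefSeq order that could be matched, 7 had 0 counts in all 4 libraries. TUBB, a beta-tubulin gene that dividing cells need, had 0 to 2 counts, and FLOT1, which encodes the membrane protein flotillin, had at most 1. The highest neighbour was MDC1, a DNA damage protein, with 59 and 95 counts in control and 39 and 22 in the others. Why this stretch is near 0 was not tested. DDR2, the other collagen receptor, lies on chromosome 1 and had 5 to 13 counts a library.

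**Figure D3:**
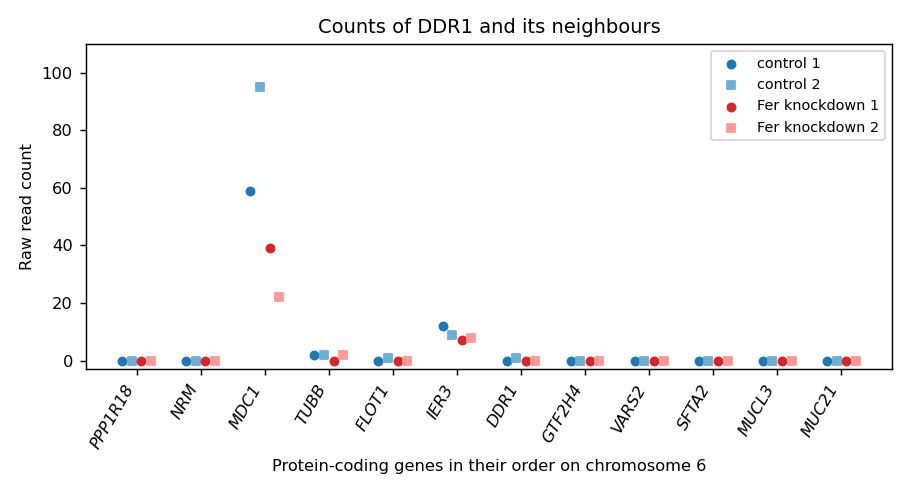
Raw read counts of DDR1 and 11 protein-coding neighbours in their order on chromosome 6, with 1 point per library. Apart from MDC1 (22 to 95 counts) no gene exceeds 12 counts.

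Sequence 5′ of the start site was compared because the members span levels from above 100 to 0 counts. RefSeq promoters (GRCh38.p14) matched 51 of the 57 genes. The 250 bases before the annotated start were searched on both strands for the GC box GGGCGG and for TATAAA. Overlapping copies of a motif were each counted. Shown 5′ to 3′ along the gene's strand are the most abundant ephrin receptor of each class and a pair of receptors with 0 counts. Capitals mark the GC box or its reverse complement CCGCCC. EPHA2 lies at chr1:16156070-16156319 on the minus strand, EPHB4 at chr7:100827524-100827773 on the minus strand, EPHB1 at chr3:134795010-134795259 on the plus strand and ERBB4 at chr2:212538803-212539052 on the minus strand.
EPHA2: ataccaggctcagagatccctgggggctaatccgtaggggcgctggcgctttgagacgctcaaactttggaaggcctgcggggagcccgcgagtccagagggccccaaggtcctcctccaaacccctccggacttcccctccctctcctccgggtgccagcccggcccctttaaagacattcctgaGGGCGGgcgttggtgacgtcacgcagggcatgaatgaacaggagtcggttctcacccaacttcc
EPHB4: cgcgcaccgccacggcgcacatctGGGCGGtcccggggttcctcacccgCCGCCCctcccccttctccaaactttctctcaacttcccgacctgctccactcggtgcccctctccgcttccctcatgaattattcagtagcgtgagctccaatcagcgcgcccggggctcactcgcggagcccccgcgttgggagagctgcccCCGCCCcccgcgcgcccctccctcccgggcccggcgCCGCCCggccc
EPHB1: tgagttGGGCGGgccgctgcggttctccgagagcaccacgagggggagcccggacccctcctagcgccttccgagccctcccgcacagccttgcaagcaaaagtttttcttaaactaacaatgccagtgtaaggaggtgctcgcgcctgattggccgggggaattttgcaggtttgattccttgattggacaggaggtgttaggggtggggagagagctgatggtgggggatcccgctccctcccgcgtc
ERBB4: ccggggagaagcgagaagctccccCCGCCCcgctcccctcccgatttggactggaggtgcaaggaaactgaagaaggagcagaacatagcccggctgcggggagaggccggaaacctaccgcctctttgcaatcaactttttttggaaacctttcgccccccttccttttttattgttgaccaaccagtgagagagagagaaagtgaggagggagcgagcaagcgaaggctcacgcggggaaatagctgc

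EPHB4 held 4 GC boxes and the other 3 held 1 each, so EPHA2, at the highest level of all members, had as many as EPHB1 and ERBB4 at 0 counts. EPHA7, also with 0 counts in every library, is not shown and held 4, as many as EPHB4. A GC box was found in 16 of 18 matched members with a level of at least 1, in 13 of 16 tested members below it and in 9 of 17 that failed the filter. It was found in 66.1% of 11547 promoters of tested genes and in 42.3% of all 27305 promoters of the same length. TATAAA occurred in 3 of the 51 member promoters (5.88%), in 5.41% of promoters of tested genes and in 11.1% of all promoters. A match is a description of these letters only.

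No receptor gene passed the test for a difference between the groups. Of the 38 tested members 0 had an adjusted p under 0.05 in edgeR's quasi-likelihood test, where 0.646% of the 15336 genes did, and 0 had one in DESeq2 or limma-voom. At an unadjusted p under 0.05 edgeR gave 4 members (10.5%, against 17.7% of all tested genes), DESeq2 3 and limma-voom 4. The adjusted threshold was passed by 3.78% of all genes in DESeq2 and by 1.16% in limma-voom. Both libraries labelled Fer knockdown lay above both controls for 11 of the 38 (28.9%, against 25.8% of all tested genes) and below them for 6 (15.8%, against 23.4%). With library totals alone, an alternative added after seeing the data, 18 lay above (47.4%, against 45.3%) and 2 below (5.26%, against 11.5%). The 2 were FGFR1 and EPHB2, whereas AXL, ERBB2, ROR2 and KIT overlapped on that scale and EPHA2, MET, RYK, IGF1R and LMTK2 lay above. The median log2 fold change was 0.04 over the 38 members and 0.01 over all tested genes, and 0.21 and 0.18 with library totals. These counts leave out the 19 members that failed the filter.

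For the 19 genes with a level of at least 1 the 95% intervals bounded the difference on the TMM scale. They rest on 2 libraries a group, with a spread that may be technical. All 19 intervals lay within a 2-fold change in either direction, and 13 within a 1.5-fold change. The limit nearest to a 2-fold change was the upper one of MST1R, at a log2 fold change of 0.98. With library totals alone the fold change of MST1R itself rose from 0.55 to 0.71, so the 2-fold bound holds for the TMM scale only. For EPHA2, singled out after its level was seen, the interval of the log2 fold change ran from -0.26 to 0.23. The standard error was 0.11 to 0.26 in these genes and 0.18 to 0.72 in the 19 tested members below a level of 1. Of these 19, 7 had an interval within a 2-fold change and 1, LMTK3, within a 1.5-fold change.

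**Figure D4:**
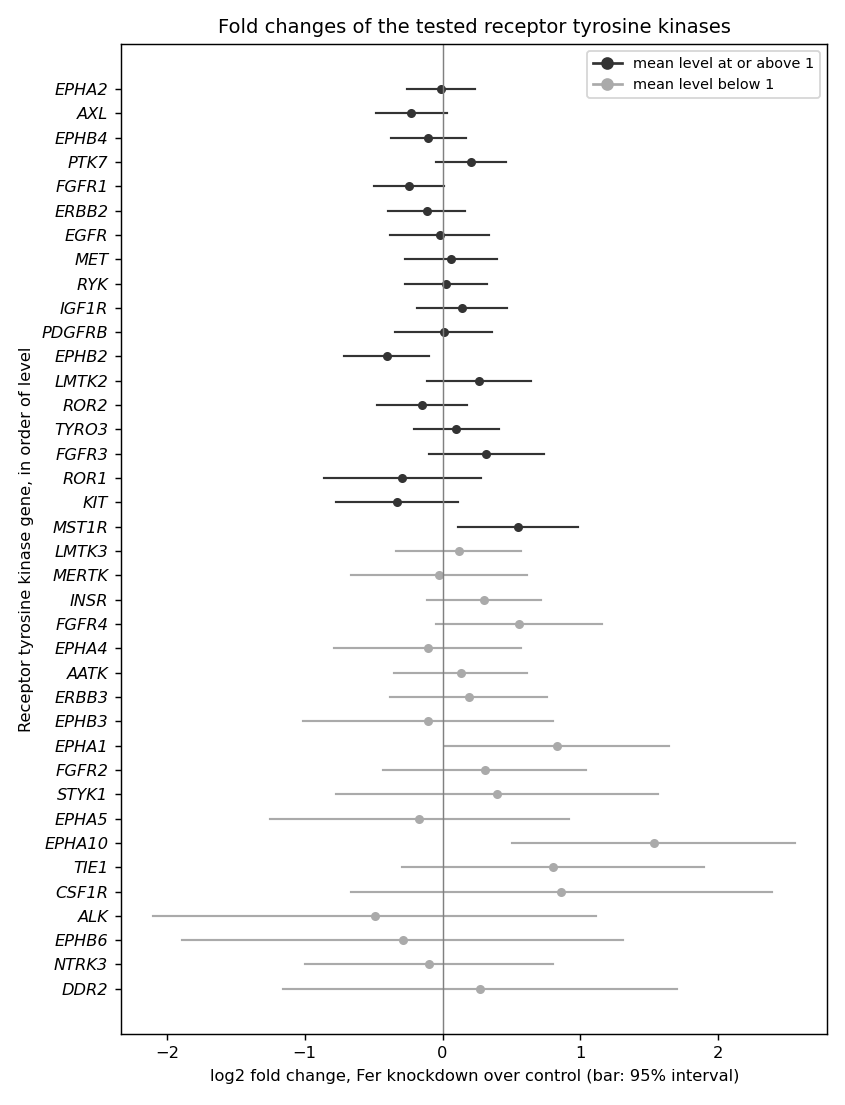
Log2 fold change of the 38 tested receptor genes, libraries labelled Fer knockdown over control, with 95% intervals from edgeR's quasi-likelihood fit, in order of level (dark, mean level at or above 1; grey, below). Intervals of EPHA10, EPHB2, MST1R and EPHA1 exclude 0 before adjustment, and no gene passed after it.

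The 10 members with the smallest p held 3 ephrin receptors. EPHA10, a pseudokinase, had 11 and 9 counts in control and 34 and 34 in the libraries labelled Fer knockdown. Its log2 fold change was 1.53 with an SE of 0.46 (edgeR's quasi-likelihood test, adjusted p = 0.136), and the other fold changes carry their SE the same way. It was the member with the smallest p and lay at a level of 0.114, far under that of EPHA2. EPHB2 went from 54.0 ± 2.69 to 40.8 ± 4.22 CPM (SD, n = 2 each; -0.41 ± 0.14, edgeR adjusted p = 0.176). EPHA1 had 29 and 21 counts against 51 and 53 (0.83 ± 0.36, adjusted p = 0.273). Point estimates of the EPH receptors thus went both ways, and none passed. EPHA10 and EPHA1 had higher values, at 9 to 53 counts a library, and EPHB2 lower ones. EPHA2, EPHB4, EPHA4, EPHA5, EPHB3 and EPHB6 overlapped between groups.

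Of the other 7, MST1R had 6.67 ± 0.949 CPM in control and 9.74 ± 0.301 CPM in the others (SD, n = 2 each; log2 fold change 0.55 ± 0.20, edgeR adjusted p = 0.189). It shares 6.78% of its exonic bases with another GENCODE 29 gene or genes. Point estimates of the FGF receptors also went both ways. FGFR1 was at -0.24 ± 0.11 (215 against 182 CPM, adjusted p = 0.309), FGFR4 at 0.55 ± 0.27 (2.63 against 3.86 CPM, adjusted p = 0.319) and FGFR3 at 0.32 ± 0.19 (8.82 against 11.0 CPM, adjusted p = 0.415). AXL was at -0.23 ± 0.12 (adjusted p = 0.341), PTK7 at 0.21 ± 0.11 (adjusted p = 0.382) and KIT at -0.33 ± 0.20 (adjusted p = 0.425). With library totals alone AXL was at -0.06, FGFR1 at -0.08, EPHB2 at -0.24, KIT at -0.17, PTK7 at 0.37 and FGFR3 at 0.48. With control replicate 1 left out KIT was at -0.50 and PTK7 at 0.27, and with control replicate 2 left out they were at -0.15 and 0.13. Among the mesenchymal markers, THY1 had a log2 fold change of -0.77 (edgeR adjusted p = 0.0302) and was the 1 marker that passed. VIM was at -0.59 (adjusted p = 0.0549). Of the 5 tested in this list 3 lay below both controls (23.4% of all tested genes did) and 0 above, with a median of -0.46. The list's summed level was 485 and 498 in control and 347 and 336 in the libraries labelled Fer knockdown. Whether these markers have a part in the values of AXL, FGFR1 and PDGFRB was not tested.

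Leaving out 1 control library changed the count of calls. Without control replicate 1, 9 members passed (31.3% of all tested genes did), and without control replicate 2, 7 members passed (21.9% of all tested genes). Without either library labelled Fer knockdown the count stayed at 0. EPHB2, AXL and FGFR1 passed with either control left out and had lower values each time (EPHB2: -0.45, adjusted p = 5.53e-05, and -0.38, adjusted p = 0.00224). AXL was at -0.29 and -0.17 (adjusted p = 7.72e-05 and 0.0415) and FGFR1 at -0.25 and -0.24 (adjusted p = 0.00180 and 0.00406). EGFR passed both times in opposite directions, at -0.23 without control replicate 1 (adjusted p = 0.0102) and at 0.22 without control replicate 2 (adjusted p = 0.0369), which follows its control levels of 8.72 and 12.12. EPHA10, KIT, MST1R, PTK7 and ROR1 also passed without control replicate 1, and EPHB4, IGF1R and LMTK2 without control replicate 2. EGFR, ERBB2, ROR1, EPHB4, IGF1R and LMTK2 were named with fold changes after their values were seen. The libraries labelled Fer knockdown lay closer together (median absolute log2 difference over tested genes 0.117) than the controls (0.260), and a fit with 1 control takes its spread from them alone.

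Ligands of EPHA2, AXL and EGFR were present in the same RNA, while the ligands of MET and IGF1R were at 0 counts. GAS6, the ligand of AXL and TYRO3, had a mean level of 171, and PROS1, which also binds TAM receptors, 9.10. EFNA1, a ligand of EPHA2, had 30.8, EFNB1 26.8 and EFNB3 17.0, while EFNB2, the main ligand of EPHB4, had 0.242. Of the EGFR ligands HBEGF led at 13.2 while EREG (2.49), AREG (2.22) and TGFA (2.16) stood in a different order in each group, and EGF itself had 0 or 1 count a library. HGF, the ligand of MET, and IGF1 and IGF2, ligands of IGF1R, had 0 counts in all 4 libraries, although both receptors were present. The reverse held for the VEGF system: VEGFB and VEGFA had levels of 78.0 and 6.88 and the co-receptor NRP1 19.3, with the VEGF receptors near 0.

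In 6 lists of partners of the receptors 140 genes were listed and 105 were tested. Of the 105, 0 passed in edgeR's quasi-likelihood test, where 0.646% of all tested genes did. At an unadjusted p under 0.05 were 5 of 37 tested ligands, 1 of 7 ephrins, 3 of 9 co-receptors, 3 of 25 adaptors and first signalling enzymes, 4 of 19 negative regulators and 1 of 8 shedding proteases, together 16.2% of those tested against 17.7% of all genes. List medians of the log2 fold change ran from -0.11 (co-receptors) to 0.01 (ligands), beside 0.01 for all tested genes. By the naming rule the co-receptors were SDC4, a heparan sulfate carrier that binds FGFs, at 0.63 ± 0.13 (edgeR adjusted p = 0.0564) and CD44 at -0.47 ± 0.12 (adjusted p = 0.0893). The ligands were AREG, with 50 and 54 counts against 118 and 119 (0.97 ± 0.25, adjusted p = 0.0978), and VEGFC (-0.56 ± 0.18, adjusted p = 0.151). EFNA1 was at 0.51 (adjusted p = 0.113) and EFNA5 at -0.28 (adjusted p = 0.319). Of the negative regulators SH2B3, an adaptor that restrains kinase signalling, was at -0.52 (adjusted p = 0.109) and LRIG1, which promotes the degradation of ERBB receptors, at 0.50 (adjusted p = 0.117). The adaptors NCK2 and SOS2 were at -0.46 and -0.56 (adjusted p = 0.136 and 0.204). SOS2 was at -0.85 without control replicate 1 and -0.22 without control replicate 2 (adjusted p = 1.01e-09 and 0.302). The proteases' list gave ADAM19 at -0.50 and RHBDF1 at -0.16 (adjusted p = 0.106 and 0.557), the latter at -0.05 and -0.28 without control replicates 1 and 2 (adjusted p = 0.641 and 0.00150). With library totals alone EFNA5, NCK2 and CD44 were at -0.12, -0.30 and -0.31. DESeq2 called 5 of these genes (LRIG1 and SDC4 higher, SH2B3, CD44 and ADAM19 lower), where it called 3.78% of all genes. The limma-voom fit called 1 (SDC4, with 1.16% of all genes), and a fit with the replicate number as a block called 9 (6.46% of all genes). Without control replicate 1 the count was 40 and without control replicate 2 it was 30, where 31.3% and 21.9% of all genes passed.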

How the data were processed

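One deposited table gives whole-number read counts for each gene beside its identifier, length and symbol, per the file headers. HISAT2, featureCounts and DESeq2 and the builds hg19 and mm10 are named, without roles, per the submitters' processing notes. For strand setting and annotation release the sources used here give nothing. One of 39635 entries held no values. The column of replicate 1 of Fer knockdown has a shortened name and was matched as the only such library with that number.

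Genes were kept by filterByExpr (15336), scaled by TMM (factors of 0.940 and 0.949 in control, 1.06 in the others) and tested with edgeR 4.0.16 in R 4.3.3, by the quasi-likelihood test without a block, two-sided, with Benjamini-Hochberg adjustment over all tested genes at 0.05. DESeq2 1.42.0, limma 3.58.1 (voom), other scalings and filters, removal of a length trend, and each library left out were alternatives. With a library left out, the lone library of its group is assumed to vary like the other group. Fold changes and tests were named for the 10 members with the smallest p, and for up to 4 genes a list past the threshold or else the 2 with the smallest p. Members and lists were chosen with earlier results of these data known. Chromosomes, exon overlaps and main transcripts (the longest principal coding one) came from GENCODE 29, a different build than hg19. The fit was tested on simulated counts. Of the list genes, 3 ligands and PECAM1 were not analysed here.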

Additional observations from a re-analysis of the deposited data

How the results depend on the processing

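The count of receptor genes past the threshold was 0 in each setting run except without control replicate 1 or 2, and ranged from 0 to 9 over the libraries left out. With the replicate number as a block it was 0. The 2 numbers do not pair the libraries by any label, and the replicate 1 minus 2 differences of both groups correlated at 0.0373 over genes. The block raised the calls over all genes from 99 to 990. Other totals over all genes were 443 with library totals alone, 580 in DESeq2, 178 in limma-voom, 993 without a filter, 687 with the length trend removed, 4793 and 3351 without control replicates 1 and 2, and 55 without Fer knockdown replicate 2. With library totals alone, the all-gene median of the log2 fold change was 0.18 in place of 0.01, with 396 calls higher and 47 lower, against 43 and 56. DESeq2 size factors gave 132 calls. The pathway lists gave 9 with the block, 5 with library totals alone, 5 in DESeq2, 1 in limma-voom, 7 without a filter, 7 with the length trend removed, and 0 to 40 over the libraries left out. Over the same, the fold change of FER ranged from -0.15 to 0.20, of EGFR from -0.23 to 0.22, of EPHB4 from -0.23 to 0.013, of IGF1R from -0.014 to 0.30 and of ROR1 from -0.65 to 0.19. With library totals alone EGFR was at 0.14, EPHB4 at 0.060, ERBB2 at 0.048 and RHBDF1 at 0.0045, and EGFR was at 0.0078 with the length trend removed. By library totals 18 members in place of 11 lay higher without overlap and 2 in place of 6 lower, chosen after seeing the data. Counting members with at least 1 CPM and no division by length gave 32. The cause was not tested for these shifts. The 19 members that failed the filter were not tested.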
